A study of Mus musculus with 18 samples.

Results

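Histone and DNA modifying enzymes were followed in the mouse ileum, the last stretch of the small intestine, from the first postnatal days to after weaning. Members were taken by symbol: a probe set annotated with a single symbol that starts with Hdac, Sirt, Kmt, Kdm, Setd, Suv39h, Ezh, Prmt, Dnmt or Tet and goes on with a number. The rule found 70 genes among the 18194 genes with a single-symbol probe set, 31 of them writers and 39 erasers. These roles were set by symbol prefix alone, and the activity of each member was not checked. Each gene was read from its brightest probe set, on average across all 18 arrays, and was tested where that probe set reached a log2 level of 6 on at least 3 arrays. That filter kept 53 of the 70 members (24 writers and 29 erasers) and 8622 of all genes. Dnmt3a and Sirt3 passed it on the 12 suckling arrays alone, Sirt5 on 3 suckling arrays alone and Hdac11 on 4 later arrays alone, so these 4 entered only through the side where they were high. Kdm4a and Kdm5d passed with 1 suckling and 2 later arrays, and Sirt6 with 1 and 3. Tet2 passed with 12 suckling arrays and 1 later array, and Hdac5 and Prmt9 with 12 and 2. Tet2, Hdac5 and Prmt9 would have failed on the later arrays alone, and Sirt6 on the suckling arrays alone. They too passed through the side where they were high.

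Pieces of full thickness came from C57BL/6 mice, an inbred strain, on postnatal days 4, 7, 9, 11, 24 and 32, with no genetic change or treatment named for any group. Each age was represented by 3 individual mice and 3 Affymetrix arrays, 18 arrays in all. Days 4 to 11 (12 arrays) were taken as before weaning and days 24 and 32 (6 arrays) as after it; the labels do not give the day of weaning, and the division rests on general knowledge of laboratory mice. Because every layer of the gut wall was in the RNA, fewer cells of a type and less RNA per cell cannot be told apart in any result. The p-values measure the spread between individual mice of one age.

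Writers place methyl groups on lysines (Kmt, Setd, Ezh and Suv39h genes) or arginines (Prmt genes) of histones, or on cytosines of DNA (Dnmt genes). Erasers take marks off: Kdm enzymes demethylate lysines, Hdac and Sirt enzymes deacetylate them, and Tet dioxygenases oxidise methylated cytosine. In the intestine, DNA methylation and histone marks at enterocyte genes are known to be remodelled around weaning, and deacetylases and Polycomb enzymes act in the balance between crypt stem cells and differentiated epithelium. Several members carry a histone enzyme's name but are also known for other substrates, among them Sirt3 and Sirt5 in mitochondria, Sirt2 and Hdac6 on tubulin, and Setd3 on actin.

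The promoters of the 3 members with the largest called differences that were not sex-linked are shown because each is dense in CG dinucleotides. CG is the dinucleotide on which Dnmt3a mostly writes methylation and Tet2 oxidises it. Methylation was not measured, so that of these windows is not known. They are the 250 bases before the annotated start of Dnmt3a (chr12:3806730-3806979, plus strand, the first of 3 starts listed), Tet2 (chr3:133544391-133544640, minus strand) and Kdm7a (chr6:39206774-39207023, minus strand), from RefSeq on GRCm38.p6, 5′ to 3′, with each CG in capitals.
Dnmt3a: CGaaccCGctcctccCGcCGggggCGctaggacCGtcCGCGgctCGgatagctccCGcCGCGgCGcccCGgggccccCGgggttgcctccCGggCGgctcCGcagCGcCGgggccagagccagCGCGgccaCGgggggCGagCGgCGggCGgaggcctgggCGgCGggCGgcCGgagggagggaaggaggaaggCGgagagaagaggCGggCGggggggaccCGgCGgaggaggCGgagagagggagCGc
Tet2: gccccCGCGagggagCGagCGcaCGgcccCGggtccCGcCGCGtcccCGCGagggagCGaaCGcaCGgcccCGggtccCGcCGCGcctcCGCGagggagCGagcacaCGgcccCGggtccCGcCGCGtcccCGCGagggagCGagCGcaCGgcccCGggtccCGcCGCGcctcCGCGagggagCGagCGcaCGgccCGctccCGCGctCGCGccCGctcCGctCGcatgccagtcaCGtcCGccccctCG
Kdm7a: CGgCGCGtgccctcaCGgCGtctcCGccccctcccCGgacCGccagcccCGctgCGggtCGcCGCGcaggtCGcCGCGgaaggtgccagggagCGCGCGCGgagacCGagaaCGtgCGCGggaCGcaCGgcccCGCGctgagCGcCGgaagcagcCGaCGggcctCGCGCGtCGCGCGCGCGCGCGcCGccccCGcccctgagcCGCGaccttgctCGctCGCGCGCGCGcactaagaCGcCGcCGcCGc
The Dnmt3a window held 38 CG dinucleotides, more than 98.1% of all listed starts. Tet2 held 51, and repeats itself: shifted by 42 bases against itself, 77.9% of the overlapping bases were identical. Kdm7a held 56, as many as any window in the table. Over the members, 59 of 70 genes had 82 listed starts with a median of 17 CG dinucleotides and 61.6% G and C, against 6 and 52.4% over 32851 starts of all genes. Of motifs searched on both strands, CCGGAAG was in 11% of member windows and 6.91% of all windows, CCAAT in 37.8% and 33.8%, and TGCGCA in 14.6% and 6.43%. Among the windows shown, Kdm7a held CCGGAAG and none held the other motifs.

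Array medians lay between 3.88 and 3.97 and arrays of one age correlated at 0.983 or more over probe sets. The 18S ribosomal RNA control probe sets stood apart on day 24: their mean level was 10.26 to 10.85 there, 7.01 to 7.96 on day 32 and 4.93 to 8.19 before weaning, with the highest suckling values on day 11 replicate 1 (8.19) and day 4 replicate 2 (7.30). Spiked poly-A controls ran from 3.53 to 4.51 before and 4.98 to 6.37 after weaning, without overlap. Differences between the stages therefore cannot be told apart from differences in sample processing, and no alternative used the poly-A level. Hybridization controls split the arrays into a higher group of 10 (4 before and all 6 after weaning) and a lower group of 8. Xist, which is transcribed from the inactivated X in females, was low in 3 of the 12 suckling mice and in 5 of the 6 older mice; sex is not given in the labels.

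Across the 6 ages, 29 of 53 members differed (limma F test, adjusted p under 0.05), or 54.7%, against 68.3% of all genes tested. Between the stages, comparing the averaged later ages (24 and 32) with the averaged suckling ages (4, 7, 9 and 11), 34 members changed, or 64.2%, against 72.9% of all genes. Of these, 8 rose and 26 fell, while of all genes 31% rose and 41.8% fell. The members' median log2 difference was -0.18 and that of all genes tested -0.07. Among erasers 22 of 29 changed (7 higher, 15 lower), and among writers 12 of 24 (1 higher, 11 lower); whether the roles differ was not tested. With the 18S level as a covariate, 19 members changed (4 higher, 15 lower), or 35.8%, against 49.5% of all genes in that fit. With Xist as a covariate 26 changed, or 49.1% against 63.4%, and the rises went from 8 to 2, with 24 lower. Quantile normalization gave 10 higher and 22 lower (60.4% against 73.6%). Within the higher hybridization group alone 27 members changed (6 higher, 21 lower), or 50.9% against 59.4%.

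**Figure D1:**
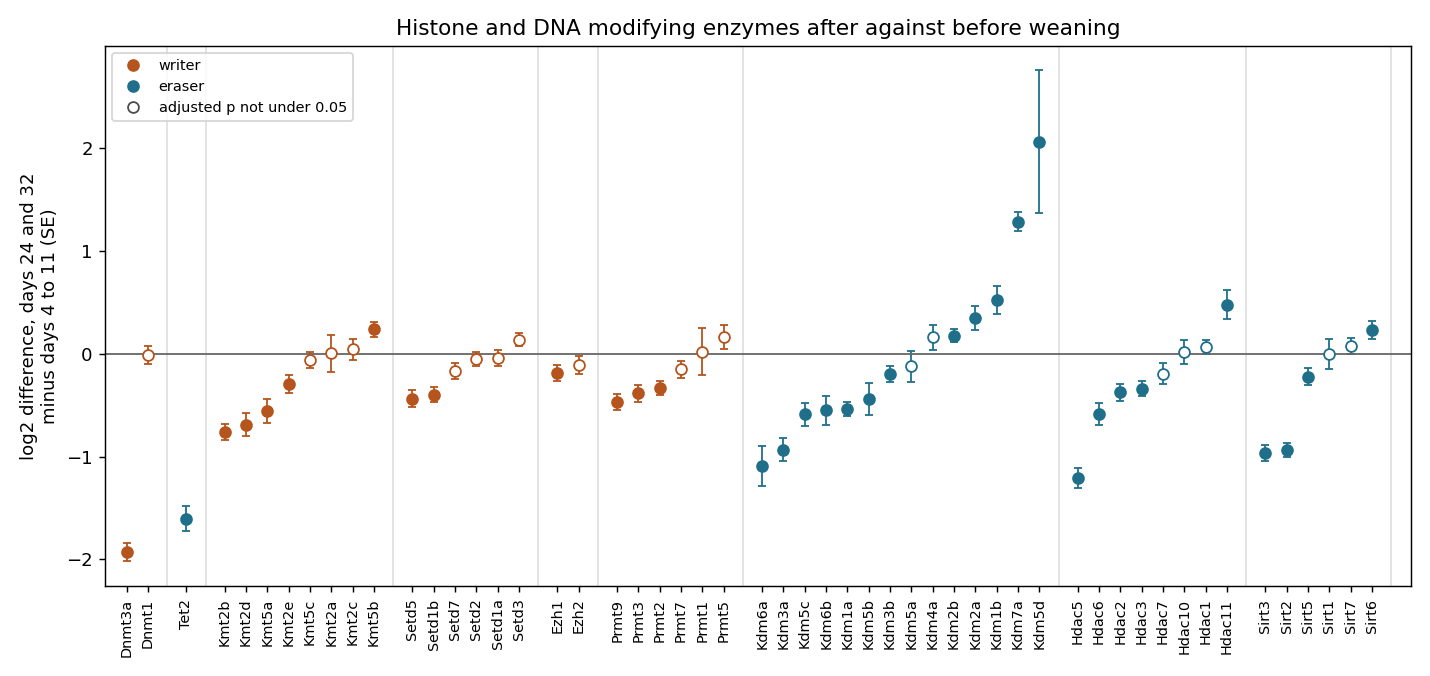
Log2 difference of days 24 and 32 minus days 4 to 11 (vertical axis, with standard error) for the 53 members tested, ordered within each enzyme family along the horizontal axis; orange points are writers, blue points erasers, and open points did not pass the test. Dnmt3a at -1.93 and Tet2 at -1.61 lie lowest, and Kdm7a at 1.29 and the Y-linked Kdm5d at 2.07 highest.

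The enzymes that set and remove DNA methylation held the largest falls. Dnmt3a, the de novo methyltransferase, was 3.80-fold lower after weaning (log2 difference -1.93 ± 0.09, SE, n = 6 against 12; limma adjusted p = 1.07e-12). Its arrays read 7.23, 7.02 and 7.00 on day 4, 7.52, 7.24 and 7.48 on day 7, 7.71, 7.71 and 7.61 on day 9 and 7.95, 7.60 and 7.33 on day 11. On day 24 they read 5.82, 5.62 and 5.55, and on day 32 5.58, 5.14 and 5.43. Dnmt3a passed the filter on the suckling arrays alone, and its levels after weaning were all under 6. Every array after weaning was below every array before it, the gap running from 7.00 to 5.82. A second Dnmt3a probe set fell by 1.62. Dnmt1, the maintenance enzyme that copies methylation after replication, did not pass the test: its arrays ran from 7.39 to 7.85 (median 7.61) before and 7.25 to 7.86 after weaning, and the difference was -0.01 ± 0.09 (adjusted p = 0.908). A dimmer second Dnmt1 probe set gave -0.29 with an adjusted p of 0.000288 in a fit over all probe sets. Dnmt3b, the other de novo enzyme, did not reach the filter; it stood at 5.34 to 5.82 before and 4.97 to 5.25 after weaning. Dnmt3l, a catalytically inactive cofactor of the germ line, was below the array medians at all ages, with means of 2.99 to 3.33.

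Tet2, which oxidises methylated cytosine, was 3.04-fold lower after weaning (-1.61 ± 0.12, adjusted p = 1.14e-09). Before weaning its arrays spanned 6.53 to 7.18 with a median of 6.88. They read 4.79, 4.19 and 4.72 on day 24 and 6.20, 5.97 and 5.58 on day 32. Both later ages lay below every suckling array, and day 24 lay lowest. Tet2 reached the filter level on 1 later array, so it passed only through the suckling side. From day 11 to day 24 Tet2 fell by 2.26 ± 0.20 (4.80-fold, adjusted p = 2.4e-08), and from day 24 to day 32 it rose by 1.35 ± 0.20 (2.54-fold, adjusted p = 0.000252); the steps share the day 24 arrays. The second Tet2 probe set gave -1.19 and 0.33 for the same steps, and its rise did not pass (adjusted p = 0.214). Tet1 was under the filter and untested: its means were 4.27, 4.63, 4.80 and 4.89 on days 4, 7, 9 and 11, then 3.12 and 3.05 on days 24 and 32, below the array medians. Tet3 was at 3.43 to 3.78 in every age mean.

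**Figure D2:**
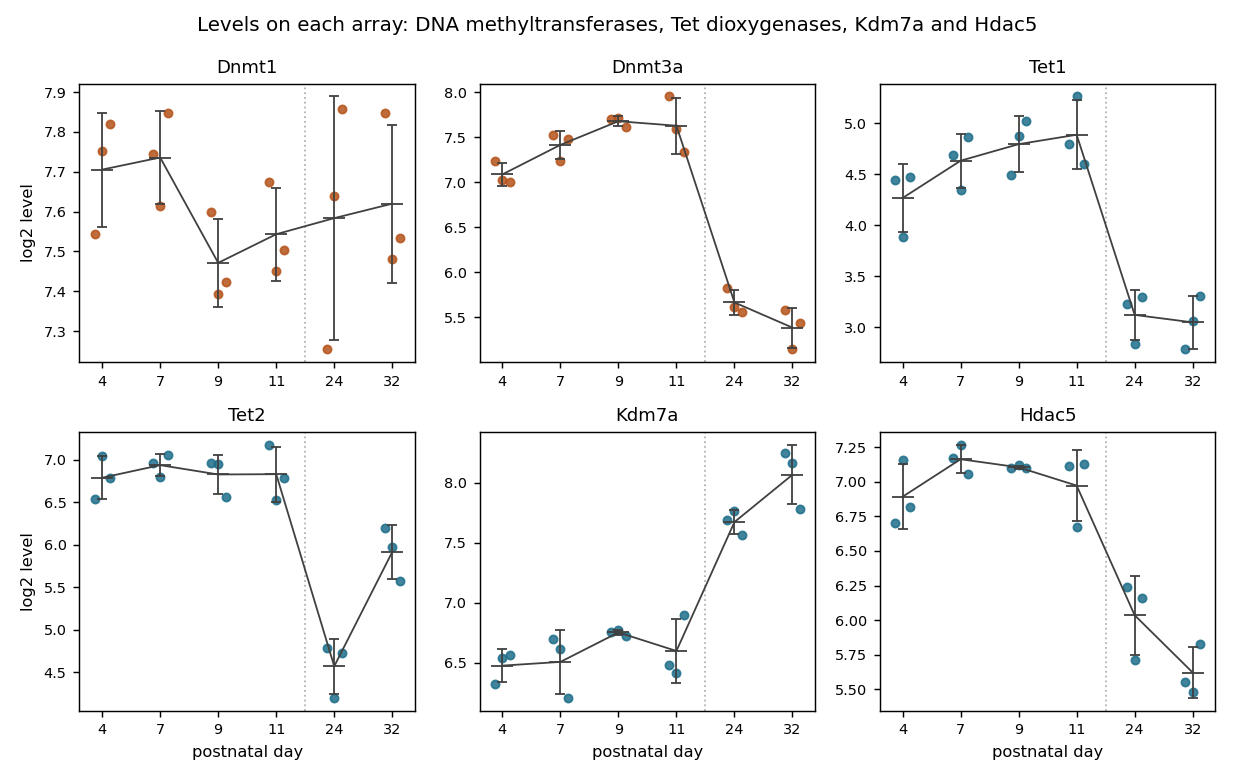
Log2 level on each array (points), with the mean and SD of the 3 arrays of an age (bars), against postnatal day for Dnmt1, Dnmt3a, Tet1, Tet2, Kdm7a and Hdac5; the dotted line lies between day 11 and day 24. Dnmt3a drops from 7.63 on day 11 to 5.66 on day 24 while Dnmt1 keeps overlapping values, Tet2 is lowest on day 24 at 4.57, and Kdm7a goes from 6.60 to 7.67.

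Writers of methyl marks on lysine 4 of histone H3, which mark active promoters and enhancers, moved unevenly between the stages. Kmt2b, a promoter enzyme also known as Mll2, fell by 0.76 ± 0.08 (adjusted p = 7.51e-08), from 7.40 to 7.98 (median 7.78) before to 6.63 to 7.32 after weaning, with no overlap. Kmt2d, an enhancer enzyme, fell by 0.69 ± 0.11, and Kmt2e, a family member with a divergent catalytic domain, by 0.29 ± 0.09. Setd1b, the catalytic subunit of a promoter complex, fell by 0.40 ± 0.07 on its brighter probe set, but its other probe set rose by 1.00, so the gene's direction depended on the probe set. Differences of Kmt2a (0.01 ± 0.18), Kmt2c (0.05 ± 0.10), Setd1a (-0.04 ± 0.08) and Setd7 (-0.17 ± 0.08) did not pass. Of the other Kmt2c probe sets, 1 fell by 0.66 (adjusted p = 0.000204) and 1 was at 0.31 (0.0787).

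Kmt2b, Kmt2c, Kmt2d and Kmt2e had their lowest age mean on day 24, unlike Kmt2a (day 7) and Setd1b (day 32). From day 11 to day 24, Kmt2d fell by 1.13 ± 0.18, Kmt2b by 0.91 ± 0.13, Kmt2e by 0.82 ± 0.15 and Kmt2c by 0.47 ± 0.17. From day 24 to day 32 the same 4 genes rose, Kmt2c by 0.68 ± 0.17 (adjusted p = 0.013), Kmt2d by 0.61 ± 0.18 (0.0351), Kmt2e by 0.55 ± 0.15 (0.021) and Kmt2b by 0.41 ± 0.13 (0.0415). Kmt2e arrays read 8.94, 8.85 and 8.32 on day 11, 7.83, 7.84 and 7.98 on day 24 and 8.42, 8.41 and 8.45 on day 32. Kmt2c arrays read 7.94, 7.75 and 7.57, then 7.30, 7.45 and 7.10, then 8.10, 8.21 and 7.59. In each case the 3 arrays of day 24 lay below those of both neighbouring ages. The rise passed on 1 of 3 Kmt2c probe sets and 1 of 4 Kmt2e probe sets that reached the filter. From day 11 to day 24 the other Kmt2c probe sets gave -1.17 and -0.0016, so the fall too depended on the probe set. The Kmt2c call was lost without day 24 replicate 3 (0.59), day 32 replicate 1 (0.61) or day 32 replicate 2 (0.56). For Kmt2b, Kmt2d and Kmt2e this rise was not recomputed by name. With the 18S covariate 2 of all members were called in this step, beside 192 of 8622 genes. The day 24 arrays were also those with 18S at 10.26 to 10.85, and day 24 replicate 3 had an actin 3′ minus 5′ difference of 1.40 where the other arrays had at most 0.80; the part of either in this pattern was not tested beyond the 18S covariate, with which the Kmt2c rise was 0.72 (adjusted p = 0.186) and the Tet2 rise 1.65 (adjusted p = 0.00724).

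**Figure D3:**
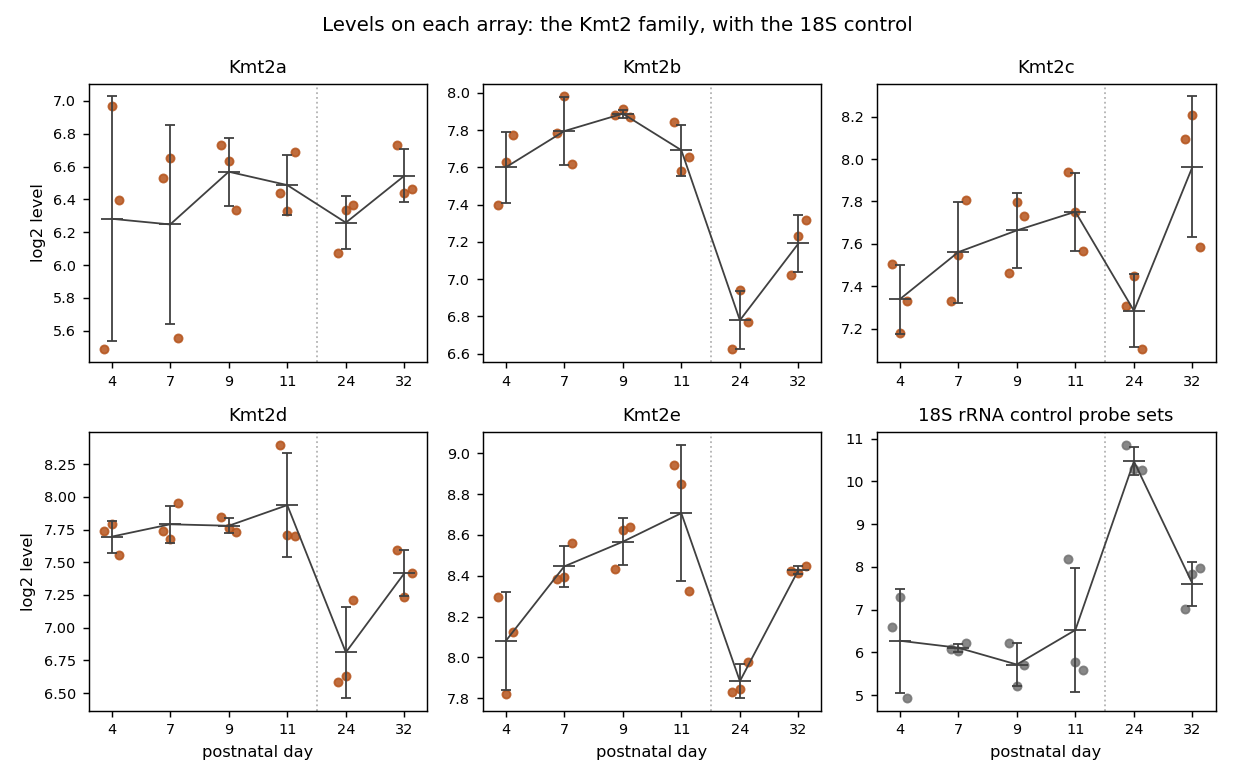
Log2 level on each array (points) with the mean and SD of each age for Kmt2a to Kmt2e, and the mean level of the 18S control probe sets in the last panel, against postnatal day; the dotted line lies between day 11 and day 24. Kmt2b, Kmt2c, Kmt2d and Kmt2e have their lowest age mean on day 24 (6.78, 7.28, 6.81 and 7.88), the age at which the 18S controls are highest.

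Of the Polycomb methyltransferases, which write the repressive mark on lysine 27 of histone H3, Ezh2 is the form of dividing cells and Ezh1 that of resting cells. Ezh2 arrays ran from 7.61 to 8.04 (median 7.82) before and 7.42 to 8.004 after weaning, overlapping throughout, and its difference was -0.10 ± 0.09 (adjusted p = 0.282); without day 32 replicate 1 it was -0.19 and passed (adjusted p = 0.047). Ezh1 ran from 6.90 to 7.33 (median 7.15) and from 6.78 to 7.33; its fall of 0.18 ± 0.08 passed narrowly (adjusted p = 0.0428), and 22 of 31 alternatives ended that call, including leaving out any of 12 single arrays, with differences from -0.19 to -0.13. Suv39h2, which methylates lysine 9 of histone H3 in heterochromatin, was under the filter, with age means of 3.37 to 3.72. Among the histone H4 enzymes, the direction of Kmt5a depended on the probe set. Kmt5a, which adds the first methyl group, fell by 0.56 ± 0.12 on its brighter probe set and rose by 0.54 on another. Kmt5b, which adds further groups, rose by 0.24 ± 0.07, the only called rise among writers on their brightest probe sets. A second Kmt5b probe set rose by 0.47 between the stages (limma adjusted p = 0.000171). It gave 0.12 from day 11 to day 24 and 0.47 from day 24 to day 32. Kmt5c was at -0.06 ± 0.08. The Kmt5b call was lost with the hybridization group as a block (0.17, adjusted p = 0.147) and under 4 of its 31 other alternatives, with both covariates among them. Setd2 (-0.05 ± 0.07) and Setd3 (0.14 ± 0.06) did not pass, and Setd5 fell by 0.43 ± 0.08. Setd4 and Setd6 were under the filter.

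Among arginine methyltransferases Prmt9 fell by 0.47 ± 0.08, Prmt3, which acts on a ribosomal protein, by 0.38 ± 0.08, and Prmt2 by 0.33 ± 0.07; a second Prmt2 probe set was at -0.02 (adjusted p = 0.749). Prmt9 reached the filter level on 2 later arrays, so it passed only through the suckling side. Prmt1, the main producer of asymmetric dimethylarginine, did not pass between the stages (0.02 ± 0.23) and was uneven among suckling mice. Its arrays read 8.09 to 8.82 on 9 of 12 suckling arrays, and 7.48 on day 7 replicate 3, 6.88 on day 11 replicate 1 and 7.27 on day 11 replicate 3. The SD over the 12 arrays was 0.66, against 0.22 over the 6 later arrays. Prmt5, the main enzyme of symmetric dimethylation (0.17 ± 0.11), and Prmt7 (-0.15 ± 0.08) did not pass, and Prmt6 and Prmt8 were under the filter.

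Of 14 lysine demethylases tested, 5 rose and 7 fell, or 85.7% called, beside 72.9% of all genes (31% higher and 41.8% lower). These counts hold the sex-linked Kdm5d among the rises and Kdm5c and Kdm6a among the falls. Whether the family differs from other genes was not tested. Kdm7a, which removes methyl groups from lysines 9 and 27 of histone H3, was 2.44-fold higher after weaning (1.29 ± 0.09, adjusted p = 6.42e-10). Its arrays read 6.32, 6.54 and 6.57 on day 4, 6.70, 6.62 and 6.21 on day 7, 6.76, 6.77 and 6.73 on day 9 and 6.48, 6.41 and 6.90 on day 11. They read 7.69, 7.76 and 7.57 on day 24 and 8.25, 8.17 and 7.79 on day 32, above every suckling array. A second probe set rose by 0.87. Kdm3a, a lysine 9 demethylase, fell by 0.93 ± 0.11, from 8.002 to 8.73 (median 8.46) before to 6.84 to 7.89 after weaning, with no overlap; with the 18S covariate its difference was -0.58 (adjusted p = 0.0541). The relative Kdm3b fell by 0.19 ± 0.08, of which day 24 gave the most: its age means were 7.27, 6.79 and 7.22 on days 11, 24 and 32.

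The flavin-dependent demethylases of lysine 4 went opposite ways. Kdm1a, or Lsd1, fell by 0.54 ± 0.07 (adjusted p = 1.05e-06), from 8.74 to 9.16 before to 8.32 to 8.53 after weaning without overlap. Kdm1b, or Lsd2, rose by 0.53 ± 0.14 (adjusted p = 0.00236), from 5.49 to 6.69 (median 6.34) to 6.53 to 6.89. That range overlapped, since the suckling arrays were spread widely. With Xist as a covariate the Kdm1b call was lost. Kdm5b fell by 0.44 ± 0.16, with day 11 replicate 1 at 8.10 and the other suckling arrays at 6.46 to 7.58. Kdm6b, a lysine 27 demethylase, fell by 0.55 ± 0.14, and its second probe set was at -0.06 (adjusted p = 0.696). Kdm2a (0.35 ± 0.11) and Kdm2b (0.18 ± 0.06), which bind CG-rich DNA, rose. Kdm2a turned to -0.13 with the 18S covariate and Kdm2b to -0.012 on its probe set with the largest spread. With the hybridization group as a block both calls were lost (Kdm2a 0.19, adjusted p = 0.283; Kdm2b 0.14, adjusted p = 0.174), as they were within the higher hybridization group alone (0.16 and 0.13). The Kdm2b call was also lost without day 24 replicate 2 (0.15) or day 32 replicate 1 (0.12). Kdm4a (0.16 ± 0.12) and Kdm5a (-0.12 ± 0.15) did not pass, and Kdm4b, Kdm4c, Kdm4d and Kdm8 were under the filter.

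Kdm5d lies on the Y chromosome, and Kdm5c and Kdm6a on the X chromosome, where both are known to escape inactivation. The 4.19-fold higher level of Kdm5d after weaning (2.07 ± 0.69, adjusted p = 0.0123) followed the sex marks of the arrays. On the arrays low in Xist it stood at 5.68 to 6.14 before and 4.56 to 6.63 after weaning, and on the arrays high in Xist at 1.90 to 2.24 before and 2.30 on the single later array. With Xist as a covariate its difference was -0.44 (adjusted p = 0.0549). Kdm5c fell by 0.59 ± 0.11 and Kdm6a, a lysine 27 demethylase, by 1.09 ± 0.20 (adjusted p = 6.43e-05). Within arrays low in Xist, Kdm6a was 6.65 to 7.25 before (n = 3) and 6.02 to 6.52 after (n = 5), and Kdm5c 6.52 to 6.84 and 5.89 to 6.49, with no overlap for either. The single later array high in Xist had Kdm6a at 7.07 and Kdm5c at 6.76, against 7.25 to 8.30 and 6.72 to 7.18 on the 9 earlier ones. Kdm6a kept its call under the Xist covariate and all other alternatives, with differences from -1.91 to -0.53.

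**Figure D4:**
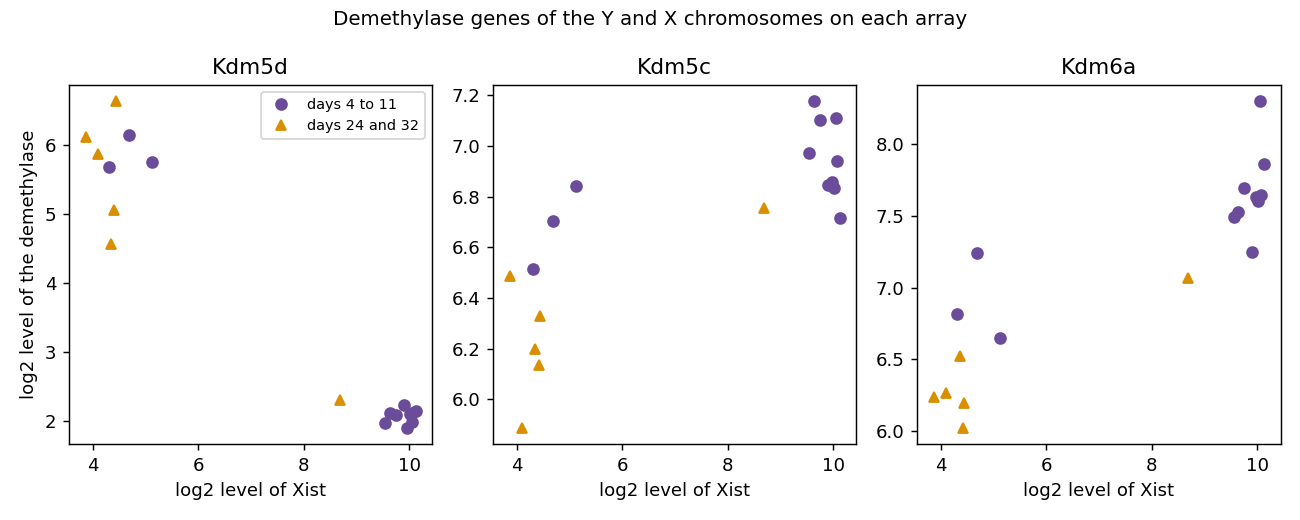
Log2 levels of Kdm5d, Kdm5c and Kdm6a (vertical axes) against the log2 level of Xist (horizontal axis) on each of the 18 arrays; circles are days 4 to 11 and triangles days 24 and 32. Kdm5d is at 4.56 or more on all 8 arrays low in Xist and at 2.30 or less on the 10 others, and within the low group the later arrays lie below the earlier ones for Kdm6a and Kdm5c.

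Deacetylases mostly fell or did not pass. Hdac5, a class IIa enzyme that shuttles between nucleus and cytoplasm, was 2.30-fold lower (-1.20 ± 0.10, limma adjusted p = 2.41e-09). Its arrays ran from 6.67 to 7.26 (median 7.11) before weaning. They read 6.24, 5.71 and 6.16 on day 24 and 5.55, 5.48 and 5.83 on day 32, and the stages did not overlap. Hdac5 reached the filter level on 2 later arrays, so it passed only through the suckling side. Of the class I enzymes, the catalytic core of nuclear corepressor complexes, Hdac2 fell by 0.37 ± 0.08 and Hdac3 by 0.34 ± 0.07, while Hdac1 was at 8.33 to 8.59 before and 8.31 to 8.82 after weaning (0.07 ± 0.07). Hdac6, the tubulin deacetylase, fell by 0.59 ± 0.10 without overlap. Hdac11 rose by 0.48 ± 0.14, from 4.98 to 5.82 (median 5.50) to 5.28 to 6.40, and lost that call under the Xist covariate and the 18S covariate. Hdac11 passed the filter on 4 later arrays alone, the side where it was high. Hdac7 (-0.19 ± 0.10) and Hdac10 (0.02 ± 0.12) did not pass, and Hdac4, Hdac8 and Hdac9 were under the filter.

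Sirtuins are deacylases that need NAD. Sirt2, mainly cytoplasmic, was 1.91-fold lower (-0.93 ± 0.07, adjusted p = 4.21e-10), from 8.50 to 8.85 (median 8.62) before to 7.56 to 7.93 after weaning. Sirt3, the main mitochondrial deacetylase, was 1.95-fold lower (-0.96 ± 0.07, adjusted p = 1.32e-09), from 6.40 to 7.04 (median 6.71) to 5.65 to 5.90. Sirt3 passed the filter on the suckling arrays alone. Neither overlapped between the stages, and both kept their calls under all alternatives tried. The mitochondrial Sirt5 fell by 0.22 ± 0.08 and the chromatin enzyme Sirt6 rose by 0.23 ± 0.09 (adjusted p = 0.0224), from 5.50 to 6.03 to 5.60 to 6.23; 9 of 33 alternatives ended the Sirt6 call, among them the hybridization group as a block (0.26, adjusted p = 0.0672) and leaving out day 24 replicate 3 (0.20) or day 32 replicate 3 (0.18). Sirt5 passed the filter on 3 suckling arrays alone and Sirt6 with 1 suckling and 3 later arrays, each through its higher side. Sirt1 (-0.00 ± 0.15) and Sirt7 (0.08 ± 0.08) did not pass, and Sirt4 was under the filter.

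Over the suckling ages the trend was fitted as a slope on the 4 age means and is given as the fitted log2 change from day 4 to day 11. It passed for 5 of 53 members, all higher and all writers by symbol prefix, against 3.62% of all genes (1.82% higher and 1.8% lower). No eraser of 29 was called by limma. Of these 29, 1 had an unadjusted p under 0.05, beside 1658 of 8622 genes tested. Whether the roles differ in the trend was not tested. The called members were Kmt2e (0.62 ± 0.14, adjusted p = 0.0189), Setd5 (0.61 ± 0.13, 0.0149), Dnmt3a (0.59 ± 0.14, 0.0278), Setd7, a lysine methyltransferase with histone and other substrates (0.47 ± 0.13, 0.0493), and Setd1b (0.45 ± 0.11, 0.0321). Setd5 arrays read 6.45, 6.29 and 6.29 on day 4, 6.47, 6.61 and 6.78 on day 7, 6.34, 6.13 and 6.53 on day 9 and 7.26, 6.95 and 7.19 on day 11, so that its change lay at day 11. Kmt2e age means were 8.08, 8.45, 8.57 and 8.71 and those of Dnmt3a 7.09, 7.41, 7.68 and 7.63. Setd7 arrays read 7.05, 6.58 and 6.88 on day 4 and 7.66, 7.27 and 7.27 on day 11, which also did not overlap. The second Dnmt3a probe set had a trend of 0.26 that did not pass (adjusted p = 0.247). None of the 3 other Kmt2e probe sets passed either, at 0.41 (adjusted p = 0.175), 0.21 (0.506) and 0.31 (0.342). The second Setd1b probe set, at 0.46, did not pass (adjusted p = 0.131).

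These trend calls depended on single mice and, for Setd7, Kmt2e and Dnmt3a, on other settings. For Setd7, 21 of 30 alternatives ended the call, among them quantile, median and cyclic loess normalization, no filter, and the Xist and 18S covariates. The mean of probe sets ended the calls of Kmt2e (0.24, limma adjusted p = 0.15) and Dnmt3a (0.21, 0.329). The probe set with the largest spread ended that of Kmt2e (0.31, 0.351). Setd1b was not among the results recomputed by name. Leaving out day 4 replicate 2, day 4 replicate 3 or day 11 replicate 1 left 0 members called, with 101, 121 and 152 genes of all still called. Calls numbered 1 without day 11 replicate 2, 2 without day 9 replicate 2 and 3 without day 9 replicate 3. Counts of all genes are not given for these fits, so a loss particular to members cannot be told from a general one. Without the 3 suckling arrays highest in 18S, again 0 members were called, beside 10 of 8622 genes. The fitted changes were then 0.62 for Setd5, 0.53 for Dnmt3a, 0.48 for Kmt2e and 0.33 for Setd7. With the 18S covariate they were 0.61, 0.58, 0.62 and 0.47. Among markers of cell types over the same days, limma called 0 of 7 fibroblast and matrix genes (5 at an unadjusted p under 0.05), 2 of 4 adipocyte genes higher, 1 of 13 proliferation genes lower (9 at an unadjusted p under 0.05, median trend -0.33), 2 of 2 hepatocyte genes lower and 1 of 2 pancreatic acinar genes lower; their part in the members' trends was not tested.

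**Figure D5:**
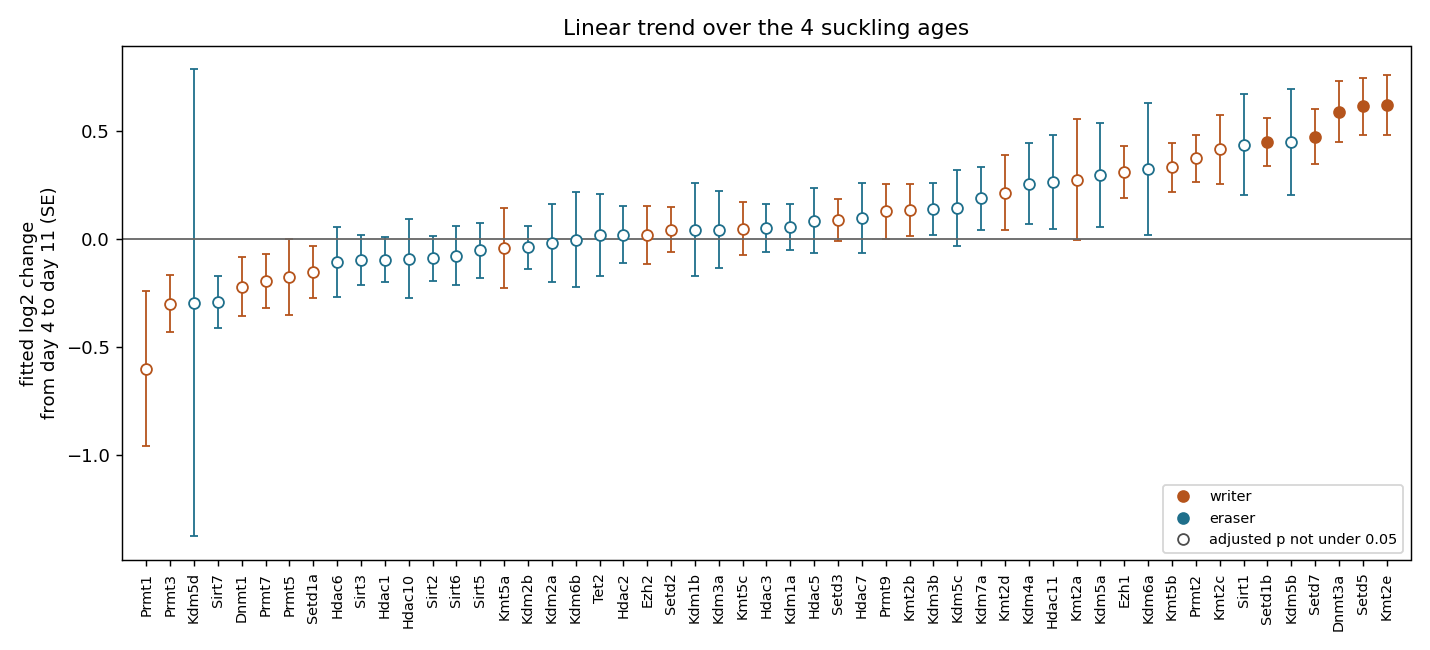
Fitted log2 change from day 4 to day 11 (vertical axis, with standard error) for the 53 members tested, sorted along the horizontal axis; orange points are writers, blue points erasers, and open points did not pass the test. The 5 filled points, between 0.45 and 0.62, are all writers by symbol prefix, and Prmt1 lies lowest at -0.60 with a wide error.

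The single steps give the same ages from other sides. From day 4 to day 11, 4 members rose and 0 fell, against 2.89% of all genes called (1.35% higher and 1.54% lower): Setd5 by 0.79 ± 0.14 (adjusted p = 0.00411), Kmt2e by 0.63 ± 0.15, Setd7 by 0.56 ± 0.13 and Setd1b by 0.46 ± 0.12. Dnmt3a missed the threshold in that step (0.54 ± 0.15, adjusted p = 0.056). Leaving out day 4 replicate 2, day 4 replicate 3 or day 11 replicate 1 left 1 call each, and counts of all genes are not given for these fits. From day 11 to day 24, 27 members changed (3 higher, 24 lower), or 50.9%, against 59.2% of all genes (26.8% higher and 32.3% lower). After quantile normalization the split was 6 higher and 21 lower, with 5209 of 8627 genes called. The rises were Kdm7a (1.07 ± 0.15, adjusted p = 1e-05), Kdm1b (0.58 ± 0.23) and Sirt6 (0.44 ± 0.14). The Kdm1b rise was lost without day 11 replicate 1 (0.27), day 24 replicate 1 (0.56) or day 24 replicate 2 (0.52). The largest falls after Tet2 were Dnmt3a (-1.96 ± 0.15, adjusted p = 3.11e-09), Kmt2d and Kdm3a (-1.12 ± 0.18). From day 24 to day 32, 6 members rose and 0 fell, against 12.3% of all genes called (6.09% higher and 6.23% lower): Tet2, the 4 Kmt2 genes above and Kdm3b (0.43 ± 0.13). Quantile normalization gave 3 higher and 1 lower, with 1210 of 8627 genes called. Of the members, 2 calls were left without day 32 replicate 1 or replicate 2 and 3 without day 24 replicate 3. For these fits too, counts of all genes are not given. In that step Kdm7a was at 0.39 ± 0.15 and Dnmt3a at -0.28 ± 0.15, and neither passed.

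Other genes of the same complexes and chemistry, without a rule prefix, were taken from a list of 96, of which 70 were tested. Between the stages 14 rose and 30 fell, with a median of -0.14, beside 31% and 41.8% of all genes. Histone acetyltransferases had 3 higher and 5 lower of 11, Polycomb partners 1 and 5 of 11, deacetylase complexes 4 and 5 of 14, lysine 4 methyltransferase complexes 1 and 2 of 8, other lysine methyltransferases 1 and 4 of 9, other demethylases 2 and 3 of 5, DNA methylation partners 2 and 2 of 7, and heterochromatin proteins 0 and 4 of 5. Jarid2, the Polycomb recruitment factor, rose from a mean of 7.31 to 8.66 (1.35 ± 0.12). Dot1l, a lysine methyltransferase of transcribed genes, rose by 0.83 ± 0.09, the cytidine deaminase Apobec1 by 0.79 ± 0.10 and the corepressor subunit Tbl1xr1 by 0.69 ± 0.07. Rnf2, the catalytic ubiquitin ligase of Polycomb, fell from 8.02 to 7.00 (-1.02 ± 0.09), the acetyltransferase Kat6b by 0.89 ± 0.09, the heterochromatin protein Cbx1 by 0.79 ± 0.09 and the Polycomb accessory Mtf2 by 0.68 ± 0.09. In the suckling trend limma called 0 of the 70, beside 312 of 8622 genes tested. An unadjusted p under 0.05 was found for 16 of the 70, beside 1658 of the 8622. From day 11 to day 24, 10 rose and 22 fell, beside 26.8% and 32.3% of all genes. From day 24 to day 32, 6 rose and 1 fell, beside 6.09% and 6.23%.

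Cell type markers moved with the stages too, and their part in the members' changes was not tested. Each level of a list is the mean over all its genes on the array, also those under the filter. That is 5 genes for neurons and glia (3 tested), 5 for endothelium (2 tested) and 6 for B and plasma cells (4 tested). For T cells and intraepithelial lymphocytes it is 8 genes (4 tested), and for macrophages 6 (5 tested). Markers of fibroblasts and matrix fell in 7 of 7 genes, with their mean level at 9.87 to 10.51 before and 8.41 to 9.26 after weaning. Those of enteric neurons and glia fell in 3 of 3 tested (5.55 to 5.93 before, 4.53 to 4.89 after) and of endothelium in 2 of 2 (5.57 to 5.91, 4.40 to 4.59). Those of macrophages fell in 2 of 5, with means of 7.01 to 7.49 before and 6.50 to 6.72 after. Csf1r went from a mean of 11.40 to 8.51 and Cd68 from 5.86 to 4.62. Adgre1 (5.33 to 5.21) and C1qc (6.30 to 6.11) moved less, and C1qa (7.33 to 7.39) and C1qb (7.63 to 7.76) were slightly higher. Markers of B and plasma cells rose in 4 of 4 tested, from 3.72 to 4.13 up to 6.18 to 9.64, and those of T cells and intraepithelial lymphocytes in 4 of 4, from 4.22 to 4.47 up to 4.66 to 6.58. Adipocyte markers rose in 4 of 4, from 4.93 to 7.57 to 8.17 to 9.89, and already stood at 6.75 to 7.57 on day 11 against 4.99 to 5.08 on day 4. Proliferation markers rose in 6 and fell in 2 of 13, at 7.56 to 8.09 before and 7.99 to 8.39 after. Epithelial markers, at 10.53 to 11.08 on all arrays, rose in 5 and fell in 3 of 8, and smooth muscle markers rose in 2 and fell in 1 of 6. Hepatocyte markers fell in 2 of 2 tested, while Alb (mean 3.17 before, 3.24 after) and Apoa2 (3.61, 3.84) were under the filter. The erythroid and the germ cell marker tested fell, and 1 of 2 pancreatic acinar markers rose. The values have no true zero, so absence of a cell type could not be read from them.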

How the data were processed

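RNA from full-thickness ileum of 18 mice, 3 at each of 6 ages, was measured on Affymetrix arrays. The deposited values are log2 levels per probe set, which the authors computed by RMA (per the submitters' processing notes; version not stated). In general RMA corrects background, brings arrays to a common distribution and summarises probes. Scan dates and the sex of the mice do not appear in the labels. Table columns belonging to no sample numbered 0. The table has 45101 rows, and the platform annotation gave 34958 probe sets a single symbol; all 70 members were in the gene table of GRCm38.p6. There are no detection calls, so levels near the array medians cannot be told from background, and the number of arrays limits the precision.

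A linear model (lmFit, eBayes; limma 3.58.1 under R 4.3.3) was run on the 8622 genes tested, age being a factor of 6 levels and 12 residual degrees of freedom; p-values were adjusted by Benjamini-Hochberg over all genes tested and called under 0.05. Where several probe sets of a member are compared, all probe sets that passed the filter were fitted together. The fit was tested on simulated data. Errors of differences are standard errors. Levels of different genes are not compared, since probe sets differ in affinity.

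Named with array values are Dnmt, Tet, Ezh and Suv39h members that passed the filter, up to 8 called rises and 8 falls between the stages, up to 4 each way in the trend and 2 each way in the other steps; of the partner list, up to 4 each way between the stages and 2 in the trend. The members and all lists were chosen with earlier results of these data known. Alternatives were the filter, the probe set rule, normalization, the variance model, array weights, only the ages compared, Xist and hybridization group as terms, and each array left out. Alternatives chosen after seeing the data were those on 18S, on day 24 or day 32 alone and on the higher hybridization group alone. Probe sets annotated with more than 1 symbol were not used.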

Additional observations from a re-analysis of the deposited data

Results flagged for a closer look

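Each of the 53 members was examined for an array standing apart among the 6 arrays after weaning, with Dixon's test, which finds about 1 in 20 such groups by chance; 2 were found. Kdm2a was at 7.66 on day 32 replicate 3, where the other arrays lay between 7.26 and 7.39. Kmt5b was at 6.72 on day 24 replicate 3, where the others lay between 7.06 and 7.22.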

How the results depend on the processing

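The 31 named member results were recomputed under the alternatives, giving 987 values; 866 kept direction and side of the threshold, 117 lost the call, 1 gained it and 3 reversed. Reversed were Kdm5d at -0.44 (Xist covariate), Kdm2a at -0.13 (18S covariate) and Kdm2b at -0.012 (probe set with the largest spread); the cause was not tested. Ezh2 passed without day 32 replicate 1 (-0.19). Kdm7a, Dnmt3a, Tet2, Hdac5, Sirt2, Sirt3 and Kmt2b kept their stage calls under each alternative run. Counts of members called moved as follows. A filter at log2 8 tests 10 members. It gave 7 in the F test (beside 72.8% of all genes in that fit), 7 between the stages (76.4%) and 7 from day 11 to day 24 (64%). It gave 1 each in the trend (4.25%), from day 4 to day 11 (3.26%) and from day 24 to day 32 (15.4%). Averaging all probe sets per gene tests 30 members. It gave 17 in the F test (56.7%, beside 69.3% of all genes) and 17 between the stages (56.7% beside 74%). It gave 2 in the trend (6.67% beside 3.53%) and 0 from day 4 to day 11, where limma called 183 genes of all (3.07%). The probe set with the largest spread gave 2 in the trend (4.65%, beside 2.52% of all genes) and 2 from day 4 to day 11 (4.65% beside 2.11%). Array weights, whose estimation stopped before full convergence, gave 12 in the trend (8 higher, 4 lower; 15% of all genes) and 9 from day 4 to day 11 (7 higher, 2 lower; 10.8%). Fits on the compared ages alone gave 1 from day 4 to day 11 (52 of 8622 genes) and 2 from day 24 to day 32 (444 of 8622). This alternative could not be applied to the F test and the stage comparison. The hybridization group as a block gave 7 from day 4 to day 11, with 484 of 8622 genes called. Without the 3 suckling arrays highest in 18S, limma called 0 in the trend and 0 from day 4 to day 11, with 10 and 8 genes of all called. With the 18S covariate 19 were called between the stages (4266 of 8622 genes) and 2 from day 24 to day 32 (192 of 8622). Leaving out 1 array at a time gave 27 to 34 in the F test, 31 to 35 between the stages, 0 to 5 in the trend, 1 to 5 from day 4 to day 11, 20 to 28 from day 11 to day 24 and 2 to 8 from day 24 to day 32. Counts of all genes are not given beside these ranges, so they do not separate a loss particular to members from a general one. Normalizing again moved the median of all genes by at most 0.07 in any comparison. No paired analysis was possible because the labels give individual mice and replicate numbers only name arrays.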
